A study of Homo sapiens with 6 samples.

Results

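The myosin heavy and light chain genes were examined in polyA RNA-seq counts of A549, an established human lung adenocarcinoma cell line. Members were the protein-coding rows of the gene table whose symbols begin with MYO, MYH or MYL and a digit, with MYL9 left out, which gave 50 of 60624 genes. They fall into 14 conventional heavy chains (MYH), 25 unconventional heavy chains (MYO) and 11 light chains (MYL). The study compared 3 libraries of parental cells, labelled WT, with 3 libraries of cells carrying a RAVER1 knockout made with CRISPR/Cas9. RAVER1 is an RNA-binding protein known as a partner of the splicing regulator PTBP1. No treatment beyond the deletion is named in the labels. All knockout libraries carry KO2 in their titles, with no statement on whether 1 clone was used, and p-values here cover library-to-library spread within that label rather than variation among separate knockout lines.

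Myosins are motor proteins that pull on actin filaments with energy from ATP. Conventional myosins, or myosin II, pair 2 heavy chains with essential and regulatory light chains and form bipolar filaments; the non-muscle forms drive contraction of the cell cortex, stress fibres and the cytokinetic ring. Phosphorylation of the regulatory light chain switches these filaments on. Unconventional myosins act in smaller units, bind calmodulin-like light chains, and carry vesicles, tether membranes or build protrusions. In epithelia, class V members are known for transport towards the apical membrane.

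The 6 libraries held 29811747 to 39910127 counts each. RAVER1 counts checked the labels: they were 2510, 1996 and 2285 in parental and 110, 112 and 79 in knockout libraries, or 3.94% of the parental level (edgeR adjusted p 1.24e-18, 3 libraries in each group). The 5 epithelial markers EPCAM, KRT8, KRT18, KRT19 and CDH1 were present in both groups, with a summed level of 6612 to 7247 CPM (reads per 1e6 scaled reads) across parental libraries and 3560 to 4116 CPM across knockout libraries. All 5 were called lower (edgeR adjusted p 2.25e-07 or less), against 20.1% of all genes tested. Of 7 fibroblast markers 3 had enough counts to be tested. All 3 were called higher (edgeR adjusted p 0.0205 or less), against 21.3% of all genes tested. The 7 summed to 46.99 to 50.005 CPM across parental and 64.97 to 69.02 CPM across knockout libraries, nearly all of it COL1A1, while DCN was at 0 in every library. The leukocyte sum was 5.11 to 5.79 CPM across parental and 3.90 to 5.20 CPM across knockout libraries, nearly all of it CD14, and CD3E was at 0. The part of these differences in the myosin results was not tested. In bulk RNA, fewer cells of a type and less RNA per cell cannot be told apart.

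Of the 50 members, 27 had enough counts to be tested. In the edgeR quasi-likelihood test 7 of these 27 were higher in knockout cells, 10 were lower and 10 did not pass an adjusted p of 0.05. For all 16652 genes tested, 21.3% were higher, 20.1% lower and 41.4% called in either direction; for the protein-coding ones alone the last share was 46.7%. Members called made up 63.0% of those tested, but most changes were small. Over the 17 members called, the size of the log2 fold change had a median of 0.30, against 0.41 for all genes called, and 4 members changed by at least 2-fold, all downward. The median log2 fold change over the 27 was -0.09, against 0.002 for all genes tested. Groups did not overlap for 17 of 27 members and for 50.2% of all genes.

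**Figure D1:**
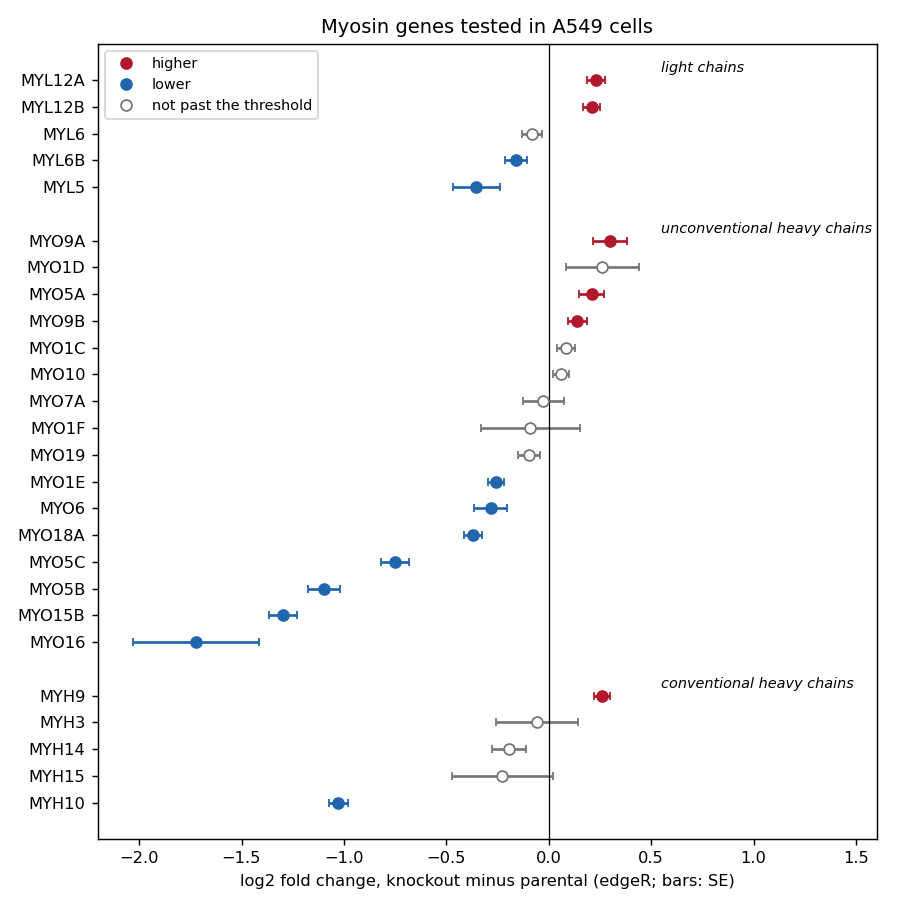
Log2 fold change (x axis, knockout minus parental) of 26 of the 27 tested myosin genes, one row each, grouped by class; points are edgeR estimates from 3 against 3 libraries, bars are standard errors, and open points did not pass the threshold. The rises plotted lie at 0.30 or less, while MYO16, MYO15B, MYO5B and MYH10 lie below -1.

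The other 23 members fell below the filter on low counts, with at most 9 counts in any library. They were 9 conventional heavy chains, 8 unconventional heavy chains and 6 light chains, and 9 of them were at 0 in all libraries. A count of 0 over all 6 libraries allows up to 0.0145 CPM (3 counts of the summed total; counting error only). The skeletal and cardiac heavy chains MYH1, MYH4, MYH6, MYH7, MYH8 and MYH13 and the light chains MYL1 and MYL7 were among those at 0, as was MYO3A. The smooth muscle heavy chain MYH11 had 35 counts in all, and MYH2 had 1. The muscle transcription factors MYOD1, MYOG, MYF5 and MYF6 were also at 0. The 10 skeletal muscle markers summed to at most 0.34 CPM in any library, the 6 cardiac ones to at most 1.12 CPM and the 5 hair cell and brush border ones to at most 0.53 CPM. The 5 smooth muscle markers summed to 50.5 to 55.0 CPM in parental and 63.75 to 65.5 CPM in knockout cells, nearly all of it SMTN. Members of this list moved both ways: SMTN rose by 0.35 on the log2 scale (edgeR adjusted p 1.99e-05) and MYOCD, a coactivator of smooth muscle genes, went from 0.011 to 0.84 CPM (edgeR adjusted p 1.61e-07), while SYNPO2 fell from 3.94 to 1.93 CPM (edgeR adjusted p 1.7e-05). CNN1, at 0.37 and 0.23 CPM, did not pass (edgeR adjusted p 0.236), and LMOD1, with 4 counts in all, was not tested.

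Of the conventional heavy chains, the 3 non-muscle forms were expressed, and 2 of them passed the test, in opposite directions. MYH9, the heavy chain of non-muscle myosin IIA (hg38 chromosome 22, 36281277 to 36388067, minus strand), rose, and MYH10, that of myosin IIB (chromosome 17, 8474205 to 8630761, minus strand), fell. MYH9 stood at 1581, 1450 and 1542 CPM in parental cells and at 1844, 1811 and 1822 CPM in knockout cells. All 3 knockout values lay above all parental ones, and the rise was 1.2-fold (log2 fold change 0.26, SE 0.04, edgeR adjusted p 4.4e-05). MYH10 stood at 125.8, 135.1 and 134.3 CPM in parental and at 62.4, 65.1 and 66.4 CPM in knockout libraries. The groups were far apart, and MYH10 was left at 49.1% of the parental level (log2 fold change -1.03, SE 0.05, edgeR adjusted p 2.59e-12). MYH14, the heavy chain of myosin IIC (chromosome 19, 50188186 to 50310544, plus strand), stood at 34.6, 25.8 and 30.2 CPM in parental and at 27.98, 24.68 and 26.71 CPM in knockout libraries. Its groups overlapped and its difference did not pass the threshold (log2 fold change -0.195, SE 0.08, edgeR adjusted p 0.0728). It passed with the replicate number as a block (-0.19, adjusted p 0.00454), with upper-quartile scaling (-0.23, adjusted p 0.0353), without the low-count filter (adjusted p 0.0232), and without parental replicate 2 (-0.29) or knockout replicate 1 (-0.24). Without parental replicate 1 the value shrank to -0.085 (adjusted p 0.453), and without knockout replicate 2 it was -0.144 (adjusted p 0.243).

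The balance among these 3 heavy chains was followed as their shares of CPM per kilobase, using the gene lengths of the deposited table. MYH9 made up 91.1%, 90.3% and 90.7% in parental and 95.6%, 95.5% and 95.4% in knockout libraries, a gain of 4.78 percentage points. MYH10 fell from 7.77% ± 0.58 to 3.34% ± 0.13 (SD, n = 3 each; exact permutation p 0.1). MYH14 stood at 1.54% ± 0.17 and 1.19% ± 0.06 (SD, n = 3 each; exact permutation p 0.1). The groups did not overlap for any of the 3 shares. The two-sided exact test of 3 against 3 libraries cannot give a p under 0.1, which all 3 shares reached. Shares add up to a whole, so they are not 3 separate results.

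**Figure D2:**
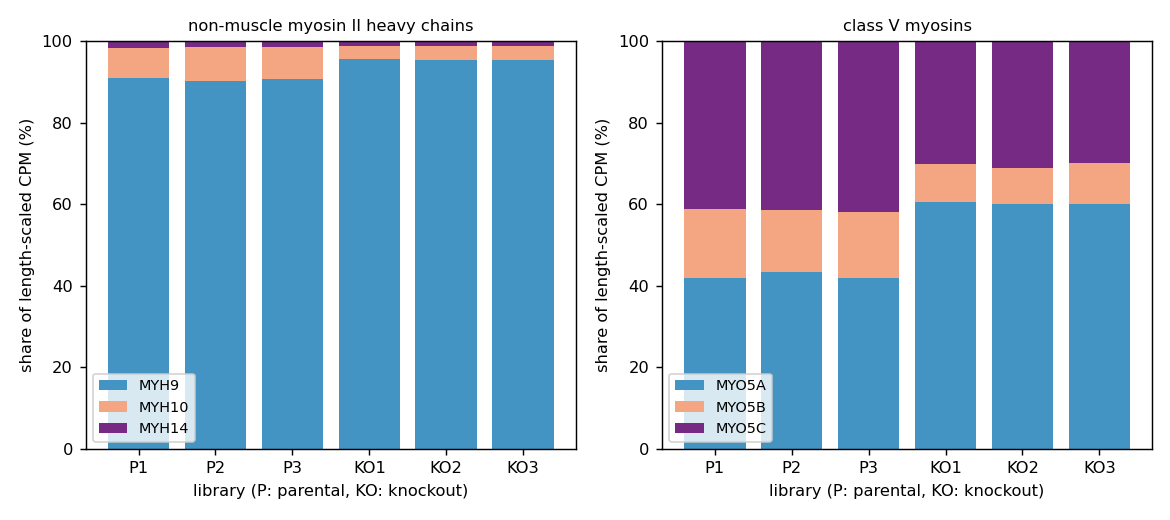
Share of length-scaled CPM (y axis, percent) of the 3 non-muscle myosin II heavy chains (left) and the 3 class V myosins (right) in each library (x axis; P parental, KO knockout). The MYH10 band shrinks from 7.17% or more in parental to 3.44% or less in knockout libraries, and the MYO5A band widens from 41.8% to 43.3% in parental to 60.1% to 60.6% in knockout libraries.

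The promoter regions of this pair are shown because the genes moved in opposite directions. Sequences are from RefSeq (GRCh38.p14) and lie upstream of the RefSeq start and of all GENCODE exons of the gene, at chr22:36388068-36388217 for MYH9 and chr17:8630762-8630975 for MYH10, both read on the minus strand. Capitals mark CAGGTG or its reverse complement CACCTG, the E-box letters known to be bound by SNAI and ZEB factors.
MYH9: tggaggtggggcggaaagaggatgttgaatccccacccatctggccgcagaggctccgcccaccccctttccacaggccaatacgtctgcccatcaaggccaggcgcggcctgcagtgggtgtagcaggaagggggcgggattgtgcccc
MYH10: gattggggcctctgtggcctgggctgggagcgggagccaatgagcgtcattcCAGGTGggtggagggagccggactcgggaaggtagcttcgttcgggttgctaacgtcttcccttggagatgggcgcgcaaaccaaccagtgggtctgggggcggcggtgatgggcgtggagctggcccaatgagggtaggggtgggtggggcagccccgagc
The MYH10 stretch, of 214 bases, holds 1 such E-box and the MYH9 stretch, of 150 bases, holds 0. Their full promoter windows of 300 bases, MYH10 first, also hold 1 and 0. Among all 35116 RefSeq promoter windows of 300 bases (250 before to 50 after the start), 20.6% hold these letters on either strand, so a match describes the sequence and is no sign of binding.

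The remaining tested conventional genes are muscle-type forms at trace levels. MYH3, the embryonic skeletal heavy chain, stood at 1.146 ± 0.092 CPM in parental cells and 1.102 ± 0.127 CPM in knockout cells, and MYH15 at 1.097 ± 0.344 and 0.94 ± 0.16 CPM (SD, n = 3 each). Neither passed the edgeR test, with adjusted p values of 0.847 and 0.502, and the groups overlapped for both. In this class 1 of 5 tested genes was thus higher, 1 lower and 3 not called, against 21.3% higher and 20.1% lower over all genes.

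Of the member light chains that bind non-muscle myosin II, the regulatory forms MYL12A and MYL12B were called higher, against 21.3% of all genes tested. The essential form MYL6B was called lower, against 20.1% of all genes tested, and MYL6 did not pass. MYL9, a further regulatory form, lies outside the rule and is given at the end. The regulatory light chains MYL12A and MYL12B, whose phosphorylation activates the motor, rose together. MYL12A stood at 149.4, 151.5 and 144.0 CPM in parental and at 175.4, 179.5 and 167.0 CPM in knockout libraries. MYL12B stood at 157.6, 158.4 and 155.0 CPM in parental and at 179.6, 187.5 and 177.7 CPM in knockout libraries. The groups did not overlap for either gene, and the log2 fold changes were 0.23 (SE 0.04) and 0.21 (SE 0.04), with edgeR adjusted p values of 0.000251 and 0.000381. Of the essential light chains, MYL6B fell slightly, from 56.0 ± 1.14 to 50.1 ± 3.19 CPM (SD, n = 3 each; log2 fold change -0.16, edgeR adjusted p 0.0255). MYL6, the abundant essential chain, stood at 602.7, 581.4 and 576.6 CPM in parental and at 602.7, 532.5 and 527.7 CPM in knockout libraries. Its groups overlapped through knockout replicate 1 (log2 fold change -0.08, SE 0.05, edgeR adjusted p 0.188). MYL6 passed without that library (-0.15, adjusted p 0.00225) and with the replicate block (-0.08, adjusted p 0.012), while its value shrank to -0.052 (adjusted p 0.492) without knockout replicate 2 and to -0.047 (adjusted p 0.555) without knockout replicate 3.

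MYL12A and MYL12B lie next to each other on chromosome 18 (3247481 to 3256236 and 3261479 to 3278431, plus strand), with 5242 bases between them. Their rises cannot be taken as independent, because their coding sequences are 95.2% identical over 516 aligned bases, with a longest identical stretch of 77 bases. How the counting treated reads that match both genes is not given in the sources used here. The first 120 alignment columns of the coding sequences (GENCODE 29 principal transcripts) show how little separates them, with differing or unmatched bases in capitals.
MYL12A: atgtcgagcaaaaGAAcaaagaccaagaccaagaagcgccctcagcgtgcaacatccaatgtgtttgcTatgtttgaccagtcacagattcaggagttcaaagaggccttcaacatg
MYL12B: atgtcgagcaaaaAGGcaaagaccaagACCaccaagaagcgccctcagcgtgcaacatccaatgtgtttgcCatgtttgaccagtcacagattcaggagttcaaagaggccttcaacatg
With the counts of both genes summed to 1 row, the summed row was higher as well (log2 fold change 0.22, edgeR adjusted p 0.000192).

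MYL5, a regulatory-type light chain, fell from 6.15 ± 0.48 to 4.79 ± 0.59 CPM (SD, n = 3 each), with a log2 fold change of -0.35 (SE 0.11, edgeR adjusted p 0.0175). Its exons overlap those of ATP5ME on the opposite strand over 579 bases, and the strand setting of the counting is not stated. MYL6 likewise overlaps SMARCC2 on the opposite strand over 514 bases, and MYL6B shares 89 exon bases with MYL6 on the same strand. The calls of the light chains that fell were fragile. MYL5 did not pass without parental replicate 2 (-0.32) or 3 (-0.33) or without knockout replicate 2 (-0.33) or 3 (-0.28), and MYL6B did not pass without parental replicate 1 (-0.145) or 3 (-0.17) or without knockout replicate 2 (-0.14) or 3 (-0.13). Of 5 tested light chains 2 were higher, 2 lower and 1 not called, against 41.4% of all genes called in either direction.

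**Figure D3:**
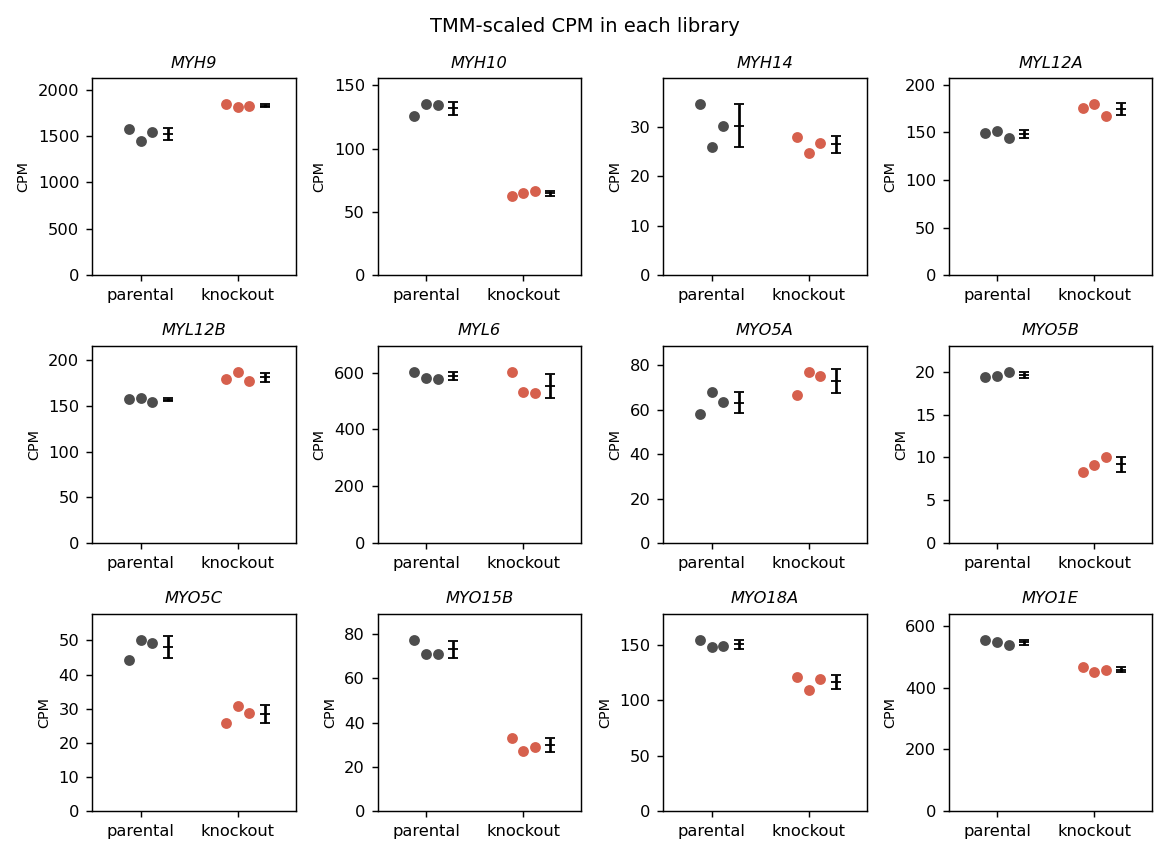
TMM-scaled CPM (y axes, each starting at 0) of 12 myosin genes in the 3 parental (grey) and 3 knockout (red) libraries; points are libraries and bars are mean ± SD. MYH10, MYO5B, MYO5C and MYO15B are clearly separated downward, at 59.4% of the parental level or less. MYO18A and MYO1E also lie lower without overlap, at 77.4% and 83.7%. MYH9, MYL12A and MYL12B lie higher without overlap, at 120%, 117% and 116%.

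Among the unconventional myosins, the 3 vesicle motors of class V were called, 1 higher and 2 lower, against 41.4% of all genes called in either direction. MYO5B, a motor of apical recycling endosomes (chromosome 18, 49822813 to 50195093, minus strand), stood at 19.34, 19.48 and 19.97 CPM in parental and at 8.35, 9.12 and 10.1 CPM in knockout libraries. It was left at 46.7% of the parental level, with no overlap between groups (log2 fold change -1.10, SE 0.08, edgeR adjusted p 1.65e-09). MYO5C, known from secretory epithelia (chromosome 15, 52192322 to 52295798, minus strand), stood at 44.3, 50.2 and 49.4 CPM in parental and at 25.7, 30.8 and 28.9 CPM in knockout libraries. It fell to 59.4%, again with no overlap (log2 fold change -0.75, SE 0.07, edgeR adjusted p 5.11e-08). MYO5A, the motor best known for carrying melanosomes (chromosome 15, 52307283 to 52529050, minus strand), stood at 58.1, 67.8 and 63.5 CPM in parental and at 66.8, 77.0 and 75.0 CPM in knockout libraries. The groups overlapped, with knockout replicate 1 below parental replicate 2, and the rise was small (log2 fold change 0.21, SE 0.06, edgeR adjusted p 0.0115). The MYO5A call was lost without parental replicate 1 (0.15) or knockout replicate 2 (0.17).

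MYO5A and MYO5C are neighbours on chromosome 15, read from the same strand with 11484 bases between them, and they changed in opposite directions. As shares of the family's CPM per kilobase, MYO5A went from 42.3% to 60.3%, MYO5C from 41.5% to 30.4% and MYO5B from 16.2% to 9.34%, given here as means of 3 libraries with no test. The stretches upstream of the 3 genes are shown for the family comparison, with the E-box letters CAGGTG or CACCTG in capitals. They lie at chr15:52529051-52529300 for MYO5A, chr18:50195148-50195397 for MYO5B and chr15:52295805-52296054 for MYO5C, all read on the minus strand (RefSeq, GRCh38.p14).
MYO5A: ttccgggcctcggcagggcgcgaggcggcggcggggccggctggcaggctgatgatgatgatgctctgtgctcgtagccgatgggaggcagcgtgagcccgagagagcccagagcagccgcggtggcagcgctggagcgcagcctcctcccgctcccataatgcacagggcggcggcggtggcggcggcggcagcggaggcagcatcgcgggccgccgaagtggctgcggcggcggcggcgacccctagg
MYO5B: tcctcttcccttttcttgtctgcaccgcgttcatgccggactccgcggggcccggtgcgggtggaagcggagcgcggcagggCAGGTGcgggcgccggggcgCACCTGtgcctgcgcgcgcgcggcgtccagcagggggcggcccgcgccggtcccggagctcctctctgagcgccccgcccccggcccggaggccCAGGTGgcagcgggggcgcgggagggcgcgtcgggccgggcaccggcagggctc
MYO5C: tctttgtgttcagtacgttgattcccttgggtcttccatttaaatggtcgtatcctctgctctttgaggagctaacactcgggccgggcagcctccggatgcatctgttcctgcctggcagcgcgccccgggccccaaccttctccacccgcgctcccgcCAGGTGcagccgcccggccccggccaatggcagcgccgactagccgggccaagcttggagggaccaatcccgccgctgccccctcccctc
The MYO5B stretch, of 80.0% GC, holds 3 E-boxes, the MYO5C stretch 1 and the MYO5A stretch 0, although the full MYO5A window holds 1 within the bases after the start. RefSeq windows were found for 24 of the 27 tested members, as 33 windows, some of which overlap. The E-box letters were in 10 of these 33, against 20.6% of all windows. They came from MYH10, MYO18A, MYO5B and MYO5C (called lower), MYL12B, by overlapping windows, and MYO5A (called higher), and MYL6, MYO1C and MYO1D (not called). MYO15B, MYO16, MYO1E, MYO6, MYL5 and MYL6B, called lower, were without them, as were MYH9, MYL12A, MYO9A and MYO9B, called higher. The letters GGAATG or their reverse complement, known for TEAD factors, were in 3 (against 14.0% of all windows). A CArG box, the site of serum response factor, was in 1 (against 1.29%).

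Class I myosins link membranes to the cortical actin network. MYO1E, a motor of clathrin-mediated endocytosis, stood at 555.5, 548.97 and 538.95 CPM in parental and at 467.6, 450.9 and 456.2 CPM in knockout libraries. The groups did not overlap, and MYO1E fell to 83.7% (log2 fold change -0.26, SE 0.04, edgeR adjusted p 2.11e-05). MYO1C, an abundant class I member, stood at 620 ± 27.8 and 657 ± 27.9 CPM (SD, n = 3 each), with overlapping groups (log2 fold change 0.08, edgeR adjusted p 0.14). It passed with the replicate block (0.08, adjusted p 0.00349). Over the runs without a library its value ranged from 0.051 without knockout replicate 1 to 0.118 without parental replicate 1 (edgeR adjusted p 0.0606). MYO1D (1.45 against 1.72 CPM) and MYO1F (0.98 against 0.91 CPM) were low and did not pass.

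The deepest falls of all tested members were in MYO16 and MYO15B. MYO15B (chromosome 17, 75588058 to 75626501, plus strand) stood at 77.5, 70.9 and 71.1 CPM in parental and at 33.2, 27.0 and 29.1 CPM in knockout libraries. It was left at 40.7% of the parental level, with no overlap (log2 fold change -1.30, SE 0.07, edgeR adjusted p 1.63e-11). MYO15A, the hair cell myosin of the same class, had 10 counts in all 6 libraries. MYO16, known from neurons, had counts of 31, 28 and 27 in parental and 7, 9 and 13 in knockout libraries. At these low counts the fold is imprecise (log2 fold change -1.72, SE 0.31, edgeR adjusted p 0.000171), although the groups did not overlap. MYO18A, which binds the Golgi protein GOLPH3, stood at 155.0, 148.1 and 149.1 CPM in parental and at 120.8, 109.8 and 119.4 CPM in knockout libraries. It fell to 77.4% (log2 fold change -0.37, SE 0.05, edgeR adjusted p 2.79e-06), and 9.3% of its exon bases are shared with TIAF1 on the same strand.

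Both class IX myosins rose modestly, while 21.3% of all genes tested were called higher. MYO9A went from 30.6 ± 2.98 to 37.7 ± 4.29 CPM and MYO9B from 110 ± 4.52 to 121 ± 4.01 CPM (SD, n = 3 each). The log2 fold changes were 0.30 (SE 0.08) and 0.14 (SE 0.05), with edgeR adjusted p values of 0.00613 and 0.0214. The MYO9B call was lost without parental replicate 2 (0.105) or 3 (0.14), without knockout replicate 3 (0.14), and under scaling by upper quartiles (0.11, adjusted p 0.085). MYO6, the motor that walks towards the minus end of actin, fell from 22.4 ± 2.51 to 18.4 ± 1.02 CPM (SD, n = 3 each; log2 fold change -0.28, SE 0.08, edgeR adjusted p 0.00764), and its call was lost without parental replicate 2 (-0.22, adjusted p 0.0541).

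MYO10, MYO7A and MYO19 did not pass the test in the main model. MYO10, the motor of filopodial tips, stood at 324 ± 6.73 and 338 ± 4.14 CPM (SD, n = 3 each; log2 fold change 0.06, SE 0.04, edgeR adjusted p 0.254), with no overlap between groups. MYO7A, the Usher syndrome myosin, stood at 6.54 and 6.44 CPM (log2 fold change -0.03, SE 0.10). MYO19, which sits on mitochondria, stood at 72.0 ± 4.83 and 67.3 ± 2.34 CPM (SD, n = 3 each; edgeR adjusted p 0.163). Its exons overlap those of ZNHIT3 and PIGW on the opposite strand. It passed with the replicate block (-0.10, adjusted p 0.035) and without parental replicate 2 (-0.15, adjusted p 0.0391). Over all unconventional heavy chains, 4 of 17 tested genes were higher, 7 lower and 6 not called, with a median log2 fold change of -0.09; of all genes tested 21.3% were higher and 20.1% lower.

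Levels of different members were compared only per length. On CPM per kilobase of the deposited gene length, MYH9 was highest (171 ± 7.56 in parental and 205 ± 1.90 in knockout libraries, SD, n = 3 each). MYH9 was followed in parental cells by MYL6 (133), MYL12B (81.3), MYO1C (79.4) and MYO1E (60.4). MYL12B and MYO1C differed by less than the spread of MYO1C (SD 3.56). MYO10, the next unconventional motor, stood at 23.2, and MYH10 went from 14.6 to 7.18, from above to below MYO18A at 10.0 and 7.75. These ranks depend on the length used. The deposited length of MYL6 is 4424 bases, with no statement on how it was derived, while its principal transcript has 901. Per kilobase of principal transcript MYL6 stood at 651 in parental libraries, above MYH9 at 202.

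**Figure D4:**
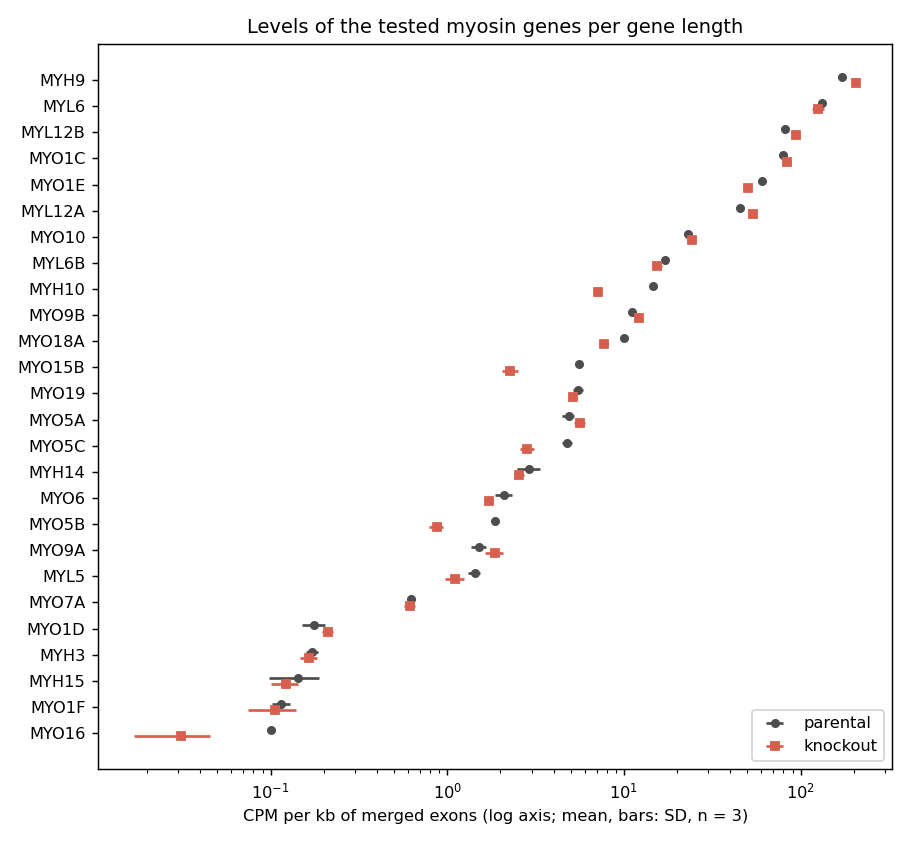
Level of 26 of the 27 tested myosin genes in CPM per kilobase of the deposited gene length (x axis, log scale, where it is labelled merged exons). Points are means of 3 parental (circles) and 3 knockout (squares) libraries with SD bars, ordered by the parental level. Levels run from 0.10 for MYO16 to 171 for MYH9 in parental cells, and MYH10, MYO15B, MYO5C, MYO5B and MYO16 stand out as shifted left in knockout cells.

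Genes that switch myosins on and off or tie them to cargo moved both ways. Of 58 such genes, 52 were tested, and 16 were higher and 17 lower, which is 63.5% called (41.4% of all genes), with a median log2 fold change of 0.07 (0.002 for all genes). All 6 tested genes of this list on chromosome 2 were higher; of all 1125 tested genes of that chromosome 66.8% were higher, with a median log2 fold change of 0.42. Outside that chromosome 10 of 46 were higher and 17 lower, with a median of -0.001.

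Among kinases of the regulatory light chain and subunits and inhibitors of its phosphatase, 7 of 20 tested were higher and 7 lower. Of all genes, 21.3% were higher and 20.1% lower. Inhibitors of the phosphatase were counted together with its subunits. DAPK1, a death-associated kinase, fell from 234.5 ± 2.999 to 80.67 ± 2.959 CPM (log2 fold change -1.54), and MYLK, the myosin light chain kinase, from 102 ± 1.02 to 73.2 ± 2.30 CPM (-0.48; SD, n = 3 each). ROCK2, a kinase that promotes contraction, on chromosome 2, rose from 64.0 ± 5.02 to 103 ± 11.99 CPM (0.69; SD, n = 3 each), while ROCK1 stood at 32.8 and 35.1 CPM (edgeR adjusted p 0.376) with a log2 fold change of 0.10 that ranged from 0.022 without parental replicate 1 to 0.198 without parental replicate 2 and passed only without knockout replicate 1 (0.19). Among 8 tested partners of myosin II, LIMCH1, which binds and activates myosin IIA, rose from 82.7 ± 1.35 to 150 ± 8.61 CPM (log2 fold change 0.86; SD, n = 3 each). SHROOM3, which recruits ROCK to apical junctions, fell from 24.9 ± 1.09 to 1.599 ± 0.255 CPM (-3.94; SD, n = 3 each). MYLIP, a ubiquitin ligase first described as a binder of the regulatory light chain, fell by 0.97 on the log2 scale. The genes of this paragraph said to have risen or fallen had edgeR adjusted p values of 2.77e-07 or less.

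Calmodulins serve as light chains of unconventional myosins. Of 4 tested calmodulin or calmodulin-like genes, 2 were higher and 1 lower, against 21.3% and 20.1% of all genes. CALM2 on chromosome 2 rose from 515 to 790 CPM and CALM3 fell from 724 to 644 CPM. Among 17 tested cargo adaptors and partners, 4 were higher and 5 lower, against 21.3% and 20.1% of all genes. The small GTPase RAB10 (log2 fold change 0.73) and melanophilin MLPH (0.46), which links MYO5A to RAB27A on melanosomes, rose, and both lie on chromosome 2. ANKS4B, a partner of MYO7B in microvilli, fell from 1.71 to 0.14 CPM (-3.60) and EXPH5, a RAB27 effector, from 1.62 to 0.25 CPM (-2.69). MYO7B itself had 26 counts in all 6 libraries, below the filter. The largest edgeR adjusted p of the genes named in this paragraph as risen or fallen was 0.00484, that of CALM3.

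**Figure D5:**
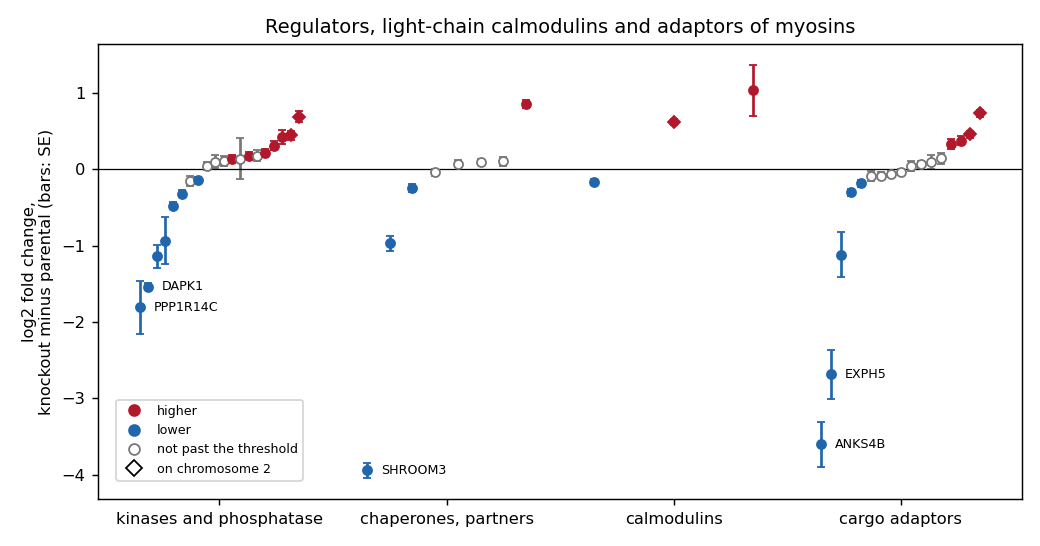
Log2 fold change (y axis, knockout minus parental, bars SE) of tested regulators, calmodulins and adaptors in 4 sets (x axis), with not all of the 52 plotted; diamonds mark genes of chromosome 2 and open points did not pass the threshold. The diamonds all lie above 0, and SHROOM3 and ANKS4B lie lowest, at -3.94 and -3.60.

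Counts are summed over whole genes. Several myosin genes are known to have alternatively spliced exons, and exon use was not analysed here.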

How the data were processed

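PolyA RNA was extracted with TRIzol and made into stranded mRNA libraries, per the labels' protocols. The submitters' processing notes name cutadapt 2.8, HISAT2 2.1.0, SAMtools 1.10 and featureCounts 2.0.0 and the build hg38. The deposited table holds raw read counts per gene and library, and a gene length in bases; annotation release, strand and multi-mapping settings were not found in the labels or the file. Counts of genes that share sequence or exons are therefore uncertain.

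All 6 libraries entered one edgeR model (edgeR 4.0.16, R 4.3.3) (filterByExpr, 16652 genes kept; TMM factors; quasi-likelihood F-test, no covariate), with Benjamini-Hochberg adjustment over all genes kept and a threshold of 0.05. CPM used TMM-scaled library sizes, and SE is the fold change divided by the root of F. Levels per kilobase used the deposited lengths. Positions and exon overlaps came from GENCODE 29 (hg38), joined by Ensembl identifier for all 50 members. Promoters came from RefSeq. Tested members were named, with RAVER1 and, of the regulators, mainly up to 6 in each direction with the smallest adjusted p; ROCK1 and CALM3 were added after their values were seen. A few results are not reported here. Members and lists were chosen with earlier results of these data known.

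No libraries of a group matched within sampling noise (chi-square per degree of freedom 2.415 to 8.864 for genes whose pair total reached 20). Replicate numbers come from the titles. Deviations from the group means correlated at 0.34, 0.17 and 0.13 for numbers 1, 2 and 3 over genes with a mean log2 CPM above 1, all over 0.1, although parental 2 and knockout 3 also correlated at 0.13. The fit with the replicate number as a block was therefore run beside the unpaired main model, and its value is given where it changes a call. Other settings tried were scaling by RLE or by upper quartiles, dropping the filter, at least 1 CPM in 3 libraries, the replicate block, each library left out, DESeq2 1.42.0, limma-voom (limma 3.58.1), no chromosome 2, MYL12A and MYL12B summed, a threshold of 0.01, and other lengths for shares, of which the principal transcript was chosen after seeing the data. On simulated counts for knockout against parental (16399 genes tested) the edgeR step found 38 of the 50 genes set to differ 1.25-fold, 43 of 50 at 1.5-fold, and all 50 at each of 2-fold and 4-fold. Of 16199 genes left unchanged it called 10. The genes set to differ all had a mean above 1 CPM and were a small part of the genes, while 41.4% were called in the data. These rates therefore do not carry over directly to the data, nor to low-count members such as MYO16.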

Additional observations from a re-analysis of the deposited data

How the results depend on the processing

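Totals of members called stayed within 1.5 times under every alternative run. Leaving out each library in turn gave 6 to 7 members higher and 8 to 12 lower, and with the replicate block 8 were higher and 13 lower. DESeq2 and limma-voom each put 7 higher and 10 lower. Conventional heavy chains called lower numbered 2 in place of 1 with upper-quartile scaling, without the filter, with the replicate block, and in 1 to 2 genes over the runs without a library; the second gene was MYH14. At an adjusted p of 0.01 unconventional heavy chains called higher numbered 2 in place of 4. Light chains called higher numbered 1 with MYL12A and MYL12B summed, by construction. Light chains called lower ranged from 0 to 3 over the runs without a library, and numbered 0 at an adjusted p of 0.01 in edgeR, against 2 at an unadjusted p under 0.05 and 2 each in DESeq2 and limma-voom at 0.05. Beyond the calls of MYH14, MYL6, MYO1C and MYO19, the block changed no call of a member. Values with no call reversed for MYH15 without parental replicate 3 (0.02), MYO7A without parental replicate 1 (0.019) or knockout replicate 2 (0.037), MYH3 without parental replicate 2 (0.005) or knockout replicate 1 (0.037), and MYO1F without knockout replicate 3 (0.084). Over all runs without a library, MYH15 reached -0.444, MYO7A -0.068, MYH3 -0.111 and MYO1F -0.324 at the other end. The cause was not tested. The shares of non-muscle heavy chains kept their direction under each alternative, with differences from 4.58 to 4.99 points for MYH9, -4.72 to -4.15 for MYH10 and -0.431 to -0.266 for MYH14 over the runs without a library. Low counts limit MYO16, MYH3, MYH15, MYO1D and MYO1F, and exact tests of 3 against 3 cannot go below 0.1.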

Other observations

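Rows that resemble members but fall outside the rule gave a few values. MYL9, a regulatory light chain of smooth muscle, had counts of 16, 7 and 9 in parental and 75, 64 and 71 in knockout libraries (log2 fold change 2.54, SE 0.26, edgeR adjusted p 2.72e-07). MYL12BP2, a processed pseudogene copy related to MYL12B, had counts of 11, 12 and 10 in parental and 22, 26 and 16 in knockout libraries (log2 fold change 0.77, SE 0.30, edgeR adjusted p 0.0437). This call was lost in every run without a library (adjusted p 0.0595 to 0.148), with upper-quartile scaling (0.0534), without the filter (0.0779) and in DESeq2 (0.199). The related MYL12BP1 stood at 0.27 (SE 0.26, adjusted p 0.431). MYH16, annotated as a unitary pseudogene, had counts of 24, 34 and 28 against 17, 20 and 17 and fell by 0.84 on the log2 scale (SE 0.265, edgeR adjusted p 0.0159), a call that DESeq2 did not make (adjusted p 0.0689) and that was lost on leaving out parental replicate 2 (-0.655, adjusted p 0.0995) or knockout replicate 1 (-0.758, adjusted p 0.051). These genes were picked after their values were seen.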
